A study of Mus musculus with 6 samples.

Results

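Claudins, and the proteins built into tight junctions with them, were followed in RNA of crypts taken from mouse small intestine. Crypts are the pits between villi where stem cells divide and Paneth cells lie. The 9 genes were picked by symbol as tight junction components of small intestinal epithelium: Cldn2, Cldn3, Cldn4, Cldn7, Cldn15, Cldn23, Ocln, Tjp1 and F11r. All 9 were found among the 17526 genes of the count table, and all 9 were among the 12943 genes with enough counts to test. Crypts of Fpr2VKO mice (3 libraries), labelled as an intestinal epithelial knockout of Fpr2, were set against crypts of Fpr2f/f controls (3 libraries), which carry the floxed Fpr2 gene and are labelled WT. The comparison asks what the loss of Fpr2, a receptor for formylated peptides, does to the crypt epithelium. The labels do not give the driver of the deletion, the strain, the sex or the age. Nor do they say that libraries came from separate animals, so every p-value rests on a spread among libraries that could be technical.

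Tight junctions are belts of protein strands that close the gap between neighbouring epithelial cells near their apical side. Claudins form the strands, and their extracellular loops set whether a strand seals the gap or lets ions of a given charge through. Occludin (Ocln) and the junctional adhesion molecule JAM-A (F11r) sit beside the claudins, and ZO-1 (Tjp1) ties them to actin inside the cell. In mouse small intestine claudin-2 and claudin-15 are known as cation pores that return sodium to the lumen for nutrient uptake.

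Totals were 16859902, 16542933 and 16827977 estimated counts in knockouts 1, 2 and 3, against 11108511, 16695304 and 12075398 in floxed controls 1, 2 and 3. Fpr2 itself was not analysed here, so the genotypes were not checked on the targeted gene. The epithelial markers Epcam, Cdh1, Cdh17, Krt8, Krt18, Krt19, Krt20 and Vil1 summed to between 11640 and 13388 CPM (counts scaled to library size, with TMM factors) in knockouts and to between 10188 and 13616 CPM in floxed controls. Some libraries stood apart. Floxed controls 1 and 3 held 279.6 and 235.6 summed CPM over the T cell markers in the table, against 67.9 to 88.2 CPM in the knockouts and 76.9 CPM in floxed control 2. Knockout 1 and floxed control 2 were high in the clock gene Arntl and low in its counterpart Dbp. Abundance also followed transcript length to a different degree in each library. Across 12661 genes the correlation of a library's centred log2 CPM with log2 transcript length was 0.035, 0.158 and -0.258 in knockouts 1, 2 and 3 and 0.433, -0.32 and -0.116 in floxed controls 1, 2 and 3. Genes are not independent replicates, and these correlations are descriptions of the libraries.

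The promoters of the claudin neighbours Cldn4 and Cldn3 and of the pore-forming Cldn2 and Cldn15 are shown because the results turn on how each pair compares. Each run is the 250 bases upstream of the gene's RefSeq start on GRCm38.p6, the assembly carried by mm10, read 5′ to 3′ on the gene's own strand. The windows are chr5:134946935-134947184 on the minus strand for Cldn4, chr5:134985964-134986213 on the plus strand for Cldn3, chrX:139800558-139800807 on the plus strand for Cldn2 and chr5:136967619-136967868 on the plus strand for Cldn15. Capitals mark matches, on either strand, to TGANTCA (AP-1), TTTAT (CDX core), CACCTG (the E-box bound by Snail) and CACGTG (the E-box of the clock factors).
Cldn4: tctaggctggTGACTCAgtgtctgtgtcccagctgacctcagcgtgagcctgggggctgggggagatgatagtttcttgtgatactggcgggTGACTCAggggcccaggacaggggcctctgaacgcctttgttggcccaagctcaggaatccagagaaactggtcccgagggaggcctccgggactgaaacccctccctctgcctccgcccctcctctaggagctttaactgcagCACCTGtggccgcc
Cldn3: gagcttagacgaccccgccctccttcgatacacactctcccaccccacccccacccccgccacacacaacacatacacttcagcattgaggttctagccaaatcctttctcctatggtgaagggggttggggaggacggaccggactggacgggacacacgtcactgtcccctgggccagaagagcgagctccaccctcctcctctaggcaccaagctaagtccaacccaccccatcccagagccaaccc
Cldn2: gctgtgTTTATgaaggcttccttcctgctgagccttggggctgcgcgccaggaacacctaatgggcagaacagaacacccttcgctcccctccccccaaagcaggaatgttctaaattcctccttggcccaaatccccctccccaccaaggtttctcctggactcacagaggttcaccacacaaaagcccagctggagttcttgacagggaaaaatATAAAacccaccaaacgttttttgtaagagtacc
Cldn15: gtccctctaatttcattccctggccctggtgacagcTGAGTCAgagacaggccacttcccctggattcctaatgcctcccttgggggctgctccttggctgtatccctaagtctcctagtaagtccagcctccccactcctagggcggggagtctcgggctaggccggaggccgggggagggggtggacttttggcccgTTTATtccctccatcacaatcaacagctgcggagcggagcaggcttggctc

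The Cldn4 window held 2 copies of TGACTCA, at 152 to 158 and 234 to 240 bases upstream of the start, and 1 CACCTG at 9 to 14 bases. None of the 4 motifs was found in the Cldn3 window, although the genes lie 39280 bases apart. Cldn2 held 2 matches to TTTAT or its reverse complement, the nearer at 30 to 34 bases. Cldn15 held 1 TTTAT at 47 to 51 bases and 1 TGAGTCA at 208 to 214 bases. Among 32851 windows of the same length in the RefSeq table, 6.75% held TGANTCA, 37.3% TTTAT, 17.2% CACCTG and 6.02% CACGTG. A match is a description of the letters, not of binding, and no overlap between marked motifs occurred in these windows. RefSeq windows were found for 8 of the 9 genes.

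Levels of different genes were compared as CPM per kilobase of the longest GENCODE transcript. Claudin-7, claudin-3 and claudin-15 were the most abundant transcripts of the set in both genotypes. Below them neighbours changed places between genotypes, Cldn2 with F11r, Ocln with Cldn4 and Tjp1 with Cldn23. Cldn7 averaged 490.7 ± 46 CPM per kilobase in knockouts and 456.9 ± 111 in floxed controls (SD, n = 3 each). Cldn3 averaged 407.4 ± 62.4 CPM per kilobase in knockouts and 422 ± 117 in floxed controls. Cldn15 had 262.5 ± 22.2 CPM per kilobase in knockouts and 278.5 ± 53.1 in floxed controls. Cldn2, the other pore former, came next at 59.5 ± 12.9 CPM per kilobase in knockouts and 51.4 ± 9.32 in floxed controls, close to F11r at 55.1 ± 2.13 and 52.9 ± 4.13.

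Below these lay Ocln, Cldn4, Tjp1 and Cldn23, whose averages over all 6 libraries were 21.6, 19, 12 and 11.1 CPM per kilobase. Only at 2 steps of the order were the ranges of neighbours fully apart, between Cldn15 and Cldn2 and between F11r and Ocln. Cldn7 was above Cldn3 in 5 of 6 libraries and Cldn3 above Cldn15 in 6 of 6, with overlapping ranges across libraries. Tjp1 and Cldn23 could not be ordered, since Tjp1 was higher in 3 of 6 libraries. Of the summed level of the 6 claudins, Cldn7 made up 39.4% ± 0.689 in knockouts and 36.7% ± 1.54 in floxed controls, and Cldn2 4.79% ± 0.93 in knockouts and 4.29% ± 1.3 in floxed controls.

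**Figure D1:**
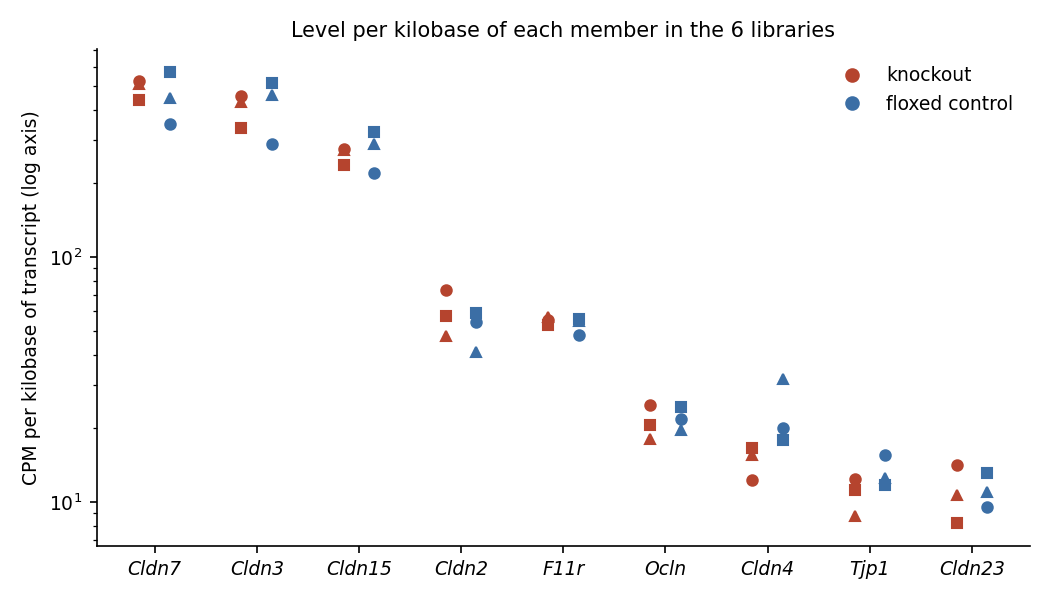
Level of each gene in CPM per kilobase of transcript, on a log axis, with knockout libraries in red left of floxed controls in blue (circle, square and triangle for libraries 1, 2 and 3). Cldn7, Cldn3 and Cldn15 lie at 220.6 or above in every library, apart from the other 6 genes, whose highest value is 73.3.

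None of the 9 genes passed the test between knockout and floxed control crypts. By edgeR's quasi-likelihood test with Benjamini-Hochberg adjustment 0 of 9 were called, where 0.0155% of all tested genes were. DESeq2 and limma-voom also called 0 of 9. DESeq2 called 2.69% of all genes it adjusted, while the share for limma-voom is not given here. At an unadjusted p under 0.05 edgeR had 1 of 9, Cldn4, against 13.7% of all genes (4.09% higher and 9.63% lower in knockouts). The median log2 fold change of the 9 was -0.05, and that of all tested genes -0.013. Each fold change is knockout over floxed control, and its 95% interval lay within 2-fold in either direction for 8 of the 9 genes, as for 75.2% of all tested genes.

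**Figure D2:**
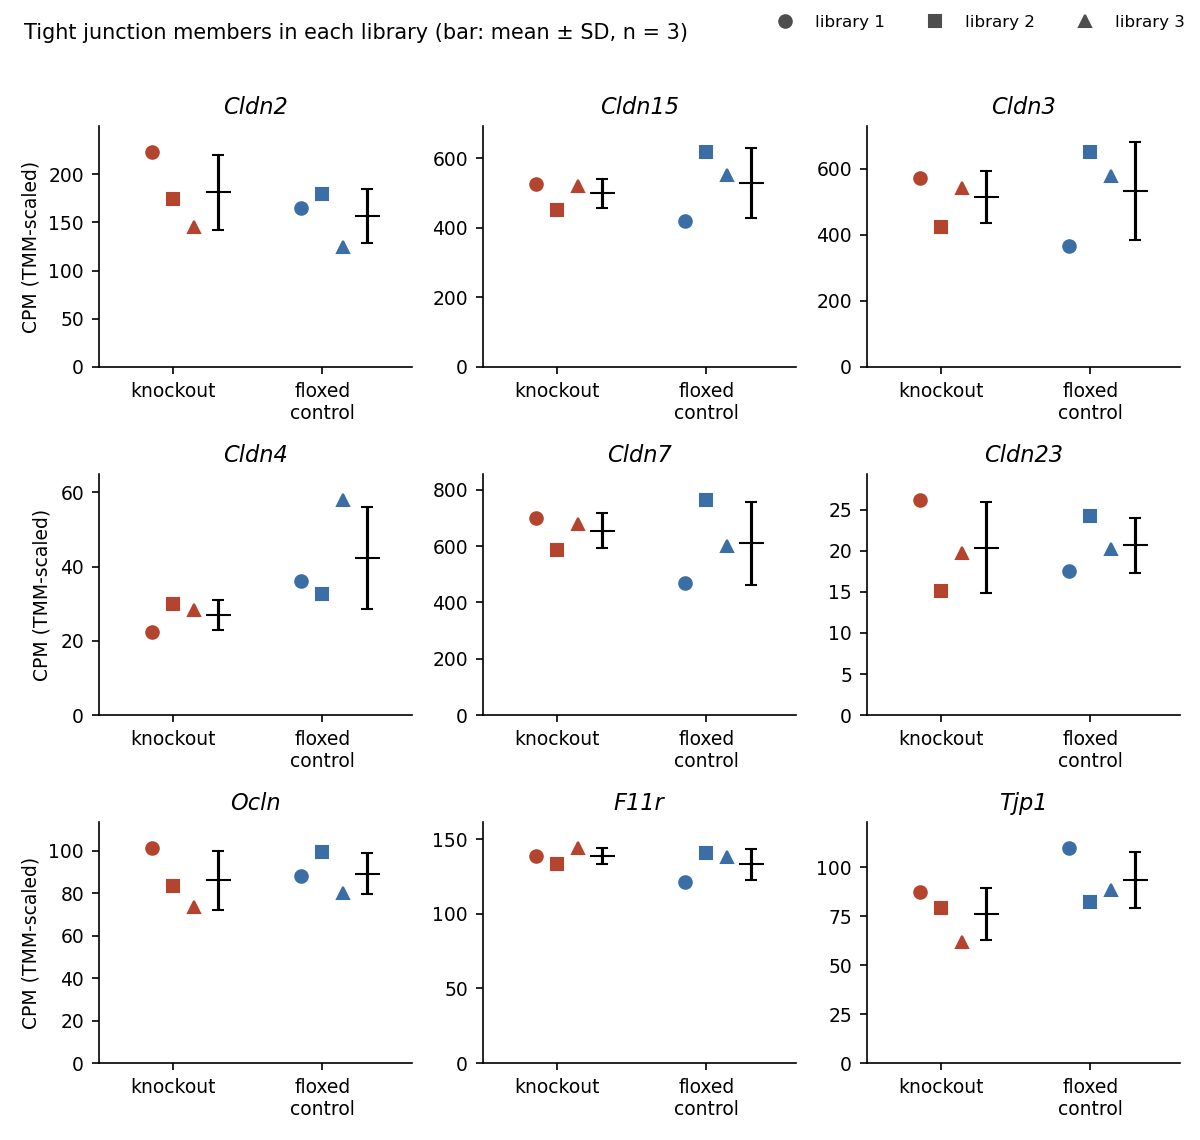
CPM of each gene in each library, knockouts in red left of floxed controls in blue, with symbols for libraries 1 to 3 and a bar for the mean and SD of 3 libraries. Every axis starts at 0. The groups overlap for each gene except Cldn4, whose 3 knockouts reach 30 CPM and whose floxed controls start at 32.5 CPM.

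Cldn2 (gene 12738, chrX:139800808-139811386), the claudin of leaky, cation-conducting crypt junctions, stood at 223.2, 174.7 and 145.6 CPM in knockouts 1, 2 and 3, against 164.8, 179.8 and 125 CPM in floxed controls 1, 2 and 3. Knockout 1 was the highest library and floxed control 3 the lowest, and the groups overlapped. The log2 fold change was 0.21 ± 0.21 (SE; edgeR adjusted p = 0.713), with an interval from 0.843-fold to 1.59-fold. Leaving out knockout 1 gave a log2 fold change of 0.035, and leaving out knockout 3 gave 0.35.

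Cldn15 (gene 60363, chr5:136967869-136975845), the cation pore found along the whole crypt and villus, had 527.2, 450.6 and 519.9 CPM in knockouts, against 419.6, 618.1 and 551.4 CPM in floxed controls. The floxed controls held both the highest and the lowest library. Its log2 fold change was -0.086 ± 0.20 (adjusted p = 0.902), and the interval ran from 0.69-fold to 1.29-fold. Within each library the log2 ratio of Cldn2 to Cldn15 counts, which needs no scaling, averaged -1.48 ± 0.31 in knockouts and -1.76 ± 0.40 in floxed controls (SD, n = 3 each), a difference of 0.28 that is smaller than either SD.

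The sealing claudins are known for tightening the barrier against ions. Cldn3 (gene 12739, chr5:134986214-134987476), which with claudin-4 is a receptor for Clostridium perfringens enterotoxin, had 572.9, 424 and 541.8 CPM in knockouts, against 365.8, 650.4 and 577.7 CPM in floxed controls. Floxed control 1 was the lowest library and floxed control 2 the highest. The log2 fold change was -0.051 ± 0.24 (adjusted p = 0.955), with an interval from 0.666-fold to 1.4-fold. The Cldn3 locus overlaps the RefSeq gene Wbscr25, and without strand information reads of the pair cannot be told apart.

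Cldn7 (gene 53624, chr11:69964779-69967886), which also lies on the lateral membrane in a complex with EpCAM, had 701.3, 585.4 and 678.7 CPM in knockouts, against 467.8, 763.2 and 598.8 CPM in floxed controls. Again floxed control 1 was lowest and floxed control 2 highest. Its log2 fold change was 0.10 ± 0.22 (adjusted p = 0.89), with an interval from 0.765-fold to 1.51-fold. Epcam, the partner and stabiliser of claudin-7, stood at 1352, 1351 and 1338 CPM in knockouts and at 1048, 1257 and 1104 CPM in floxed controls. Those groups did not overlap, with a log2 fold change of 0.25 ± 0.20 (adjusted p = 0.65).

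Cldn23 (gene 71908, chr8:35824709-35826559) was the least abundant claudin of the set, at 26.2, 15.1 and 19.8 CPM in knockouts and 17.6, 24.3 and 20.2 CPM in floxed controls. The log2 fold change was -0.025 ± 0.22 (adjusted p = 0.977), between 0.697-fold and 1.39-fold.

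Cldn4 (gene 12740, chr5:134945123-134946934), the other enterotoxin receptor and a sealing claudin, was the gene with the largest fold change of the 9. It stood at 22.4, 30 and 28.3 CPM in knockouts 1, 2 and 3, against 36.2, 32.5 and 57.9 CPM in floxed controls 1, 2 and 3. Every knockout lay below every floxed control, though knockout 2 and floxed control 2 were close. The log2 fold change was -0.65 ± 0.23, or 0.639-fold with an interval from 0.45-fold to 0.908-fold. It did not pass over all genes by edgeR (unadjusted p = 0.0173, adjusted p = 0.249) or DESeq2 (adjusted p = 0.185), and the exact two-sided permutation p was 0.1, the smallest that 3 libraries against 3 allow. Groups fully separated with the knockouts lower occurred in 10.3% of all tested genes, and with the knockouts higher in 6.99%.

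The Cldn4 value rested in large part on floxed control 3. Without that library the log2 fold change was -0.32 (adjusted p = 0.878), and without floxed controls 1 and 3 together, against a lone control assumed to vary like the other libraries, it was -0.21. Without floxed control 2 it was -0.80 (adjusted p = 0.0614). Within the pair of libraries set apart by clock genes, knockout 1 minus floxed control 2, the difference was -0.54 on the log2 scale, and within the other 4 libraries -0.65.

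Floxed control 3 also had the highest summed level of several marker lists of differentiated crypt cells. Paneth cell markers summed to 26404 to 40686 CPM in knockouts and to 79389 to 155193 CPM in floxed controls, with 14 of 14 markers at a negative log2 fold change and 0 called. Goblet cell markers summed to 8606 to 13582 CPM in knockouts and to 14730 to 21881 CPM in floxed controls, the last value in floxed control 3, with 12 of 12 markers at a negative log2 fold change and 0 called. Enteroendocrine markers summed to 455.3 to 647.7 CPM in knockouts and 855.5 to 1480 CPM in floxed controls, with 12 of 12 negative. Enterocyte markers overlapped, at 5230 to 9512 CPM in knockouts and 5985 to 12206 CPM in floxed controls, with 13 of 15 negative. Tuft cell markers also overlapped, at 87.6 to 130.4 CPM in knockouts and 126 to 273.5 CPM in floxed controls. Their highest library was floxed control 1, and 9 of 9 tested were negative. Stem cell markers were highest in floxed control 1 too, at 3220 CPM, with 10 of 10 negative. Proliferation markers were lowest in floxed control 3, at 958.8 CPM, with 12 of 12 positive. Calls are by edgeR, which called 0.0155% of all tested genes, so 0 called does not show that a list was unchanged. Of all 12943 tested genes, 6722 had a negative log2 fold change and 6221 a positive one. No marker of these lists was at 0 in all libraries. The part of these marker lists in the Cldn4 difference was not tested. In whole crypts, fewer cells of a type cannot be told apart from less RNA per cell.

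Of the tested genes with an average log2 CPM of at least 3, those most like Cldn4 across the 6 libraries were Fbxo6 (Pearson r = 0.996), Ypel3 (0.991), Plekhg6 (0.982), Sord (0.981) and Aplp1 (0.98). They are the top of a search over many genes, where 6 libraries give high r by selection alone. A shared regulation was not tested. Among the other 8 junction genes the closest was Tjp1 at r = 0.30, and the most opposed was Cldn2 at r = -0.83. After a trend on transcript length and GC content was taken out of each library, as described further on, the most opposed was Cldn7 at r = -0.97, in place of -0.38, and Cldn2 was at -0.78. The log2 ratio of Cldn4 to its neighbour Cldn3 averaged -4.25 ± 0.43 in knockouts and -3.66 ± 0.57 in floxed controls, with values from -4.68 to -3.82 and from -4.32 to -3.32.

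**Figure D3:**
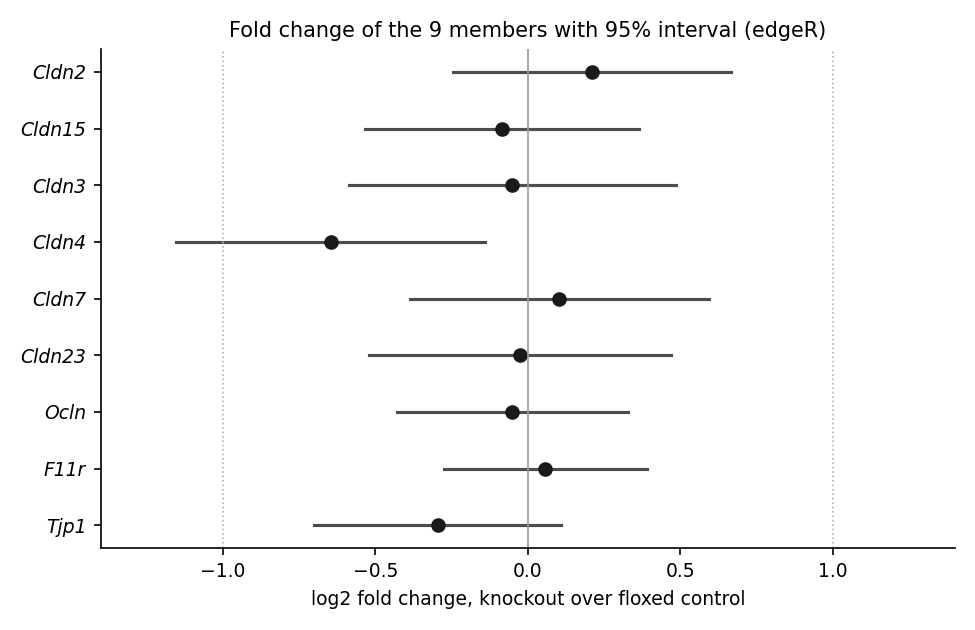
Log2 fold change of each gene, knockout over floxed control, as a point with its 95% interval from edgeR, and dotted lines at 2-fold. Cldn4 is the gene whose interval does not reach 0 (-1.15 to -0.14), before any adjustment over genes. The other 8 intervals cross 0 and stay inside 2-fold.

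The membrane partners of the claudins had the narrowest intervals of the set. Ocln (gene 18260, chr13:100496504-100552718), the MARVEL-domain protein that gives strands their stability, had 101.1, 83.4 and 73.4 CPM in knockouts, against 88.1, 99.1 and 79.9 CPM in floxed controls. Its log2 fold change was -0.051 ± 0.17 (adjusted p = 0.936), between 0.743-fold and 1.25-fold. The Ocln locus overlaps the RefSeq gene LOC115488221, whose reads cannot be told apart from its own. F11r (gene 16456, chr1:171437561-171464593), which encodes JAM-A, had 139, 133.2 and 143.9 CPM in knockouts, against 121.4, 140.7 and 137.8 CPM in floxed controls. It had the narrowest interval of the 9, from 0.826-fold to 1.31-fold, around a log2 fold change of 0.057 ± 0.15 (adjusted p = 0.914).

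Tjp1 (gene 21872, chr7:65296165-65527850), the scaffold ZO-1, had 87.5, 79.1 and 61.7 CPM in knockouts, against 109.7, 82.4 and 88.2 CPM in floxed controls. Knockout 3 was the lowest library and floxed control 1 the highest, while knockout 1 lay above floxed control 2. The log2 fold change was -0.30 ± 0.18 (adjusted p = 0.514), with an interval from 0.615-fold to 1.08-fold. It ran from -0.49 without floxed control 2 and knockout 1 to -0.054 without floxed controls 1 and 3.

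Several of these genes varied together between libraries of both genotypes. Cldn3 and Cldn15 moved together over the 6 libraries (r = 0.98), and so did Cldn7 and F11r (r = 0.91), while Tjp1 ran against F11r (r = -0.81). These correlations are descriptions over 6 libraries that share library depth and length trends. Floxed control 1, the library with the strongest excess of long transcripts, had the lowest values of Cldn3, Cldn7, Cldn15 and F11r, and the highest of Tjp1. The transcripts of Cldn3, Cldn7 and Cldn15 are 1259, 1335 and 1902 bases long, that of F11r 2518 bases and that of Tjp1 7049 bases. Cldn4 (1816 bases) and Cldn23 (1848 bases) are also short, but neither was lowest in floxed control 1. Their centred log2 CPM there was 0.13 and -0.20. In floxed control 1 the upper quartile of transcripts by length had a median centred log2 CPM of 0.25 and the lowest quartile -0.28.

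Once a smooth trend on transcript length and GC content was taken out of each library, a step added after the data were seen, the range of Cldn3 over the libraries was 0.41 on the log2 scale in place of 0.83. The range of Cldn15 was 0.27 in place of 0.56, that of Cldn7 0.33 in place of 0.71, that of F11r 0.14 in place of 0.25 and that of Tjp1 0.46 in place of 0.83. Cldn2 (0.81 and 0.84) and Cldn4 (1.30 and 1.37) moved little, and Ocln became wider (0.66 and 0.46). The correlation of Cldn3 with Cldn15 was then 0.74, that of Cldn7 with F11r 0.48 and that of Tjp1 with F11r -0.26. With the trend out, edgeR still called 0 of the 9. Tjp1 had a log2 fold change of -0.28 ± 0.12 with every knockout below every floxed control (unadjusted p = 0.0455, adjusted p = 0.280). Cldn4 had -0.62 ± 0.23 (adjusted p = 0.232), with knockout 2 then above floxed control 2. As scaled, 17.3% of all tested genes had groups that did not overlap and 13.7% an unadjusted edgeR p under 0.05. The shares with the trend out are not given here, so how common the Tjp1 result is cannot be read.

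**Figure D4:**
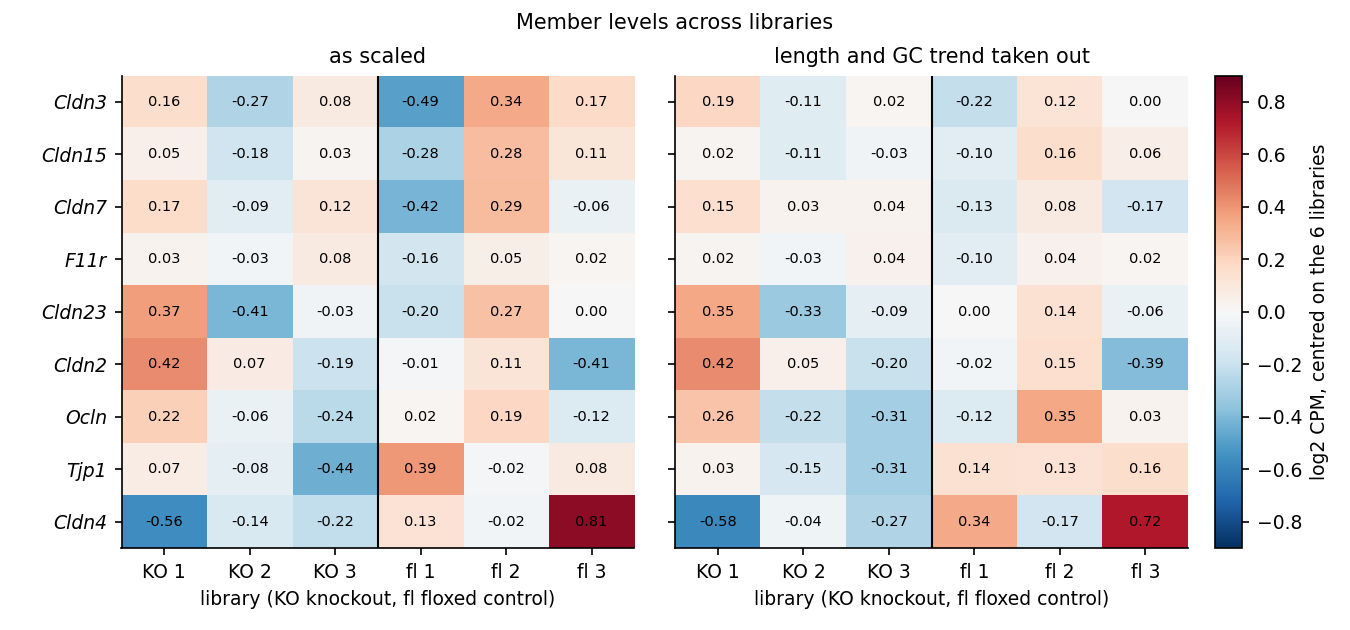
Log2 CPM of each gene centred on the 6 libraries, with 3 knockouts left of 3 floxed controls, as scaled (left panel) and after the trend on transcript length and GC content was taken out (right panel). The low values of Cldn3, Cldn15 and Cldn7 in floxed control 1 (-0.49, -0.28 and -0.42) are nearer 0 in the right panel (-0.22, -0.097 and -0.13), while the Cldn4 row keeps its high value in floxed control 3.

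A second pattern set knockout 1 and floxed control 2 apart from the other libraries. Arntl stood at 34, 11.4 and 5.93 CPM in knockouts 1, 2 and 3 and at 12, 27.8 and 7.48 CPM in floxed controls 1, 2 and 3. Cldn8, a claudin better known from the distal gut and kidney, was highest in the same pair of libraries, with 6.26, 1.13 and 0.84 CPM in knockouts and 1.75, 3.93 and 1.58 CPM in floxed controls, from 15 to 111 counts a library. Of the 9 genes, Cldn2, Cldn7, Cldn23 and Ocln also had their highest values in knockout 1 and floxed control 2. The share of all tested genes highest in this pair is not given here, so these genes cannot be set against it. Dbp ran opposite to Arntl, at 4.46, 23.8 and 25.6 CPM in knockouts and 25, 6.82 and 44.2 CPM in floxed controls. The part of the clock genes in these levels was not tested. The pair holds 1 library of each genotype, and Cldn8 had a log2 fold change of 0.15 ± 0.69 (adjusted p = 0.953), whose direction turned under several settings.

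The rest of the tight junction was described from a list. Of 76 listed beside the 9, 71 were in the table and 51 had enough counts to test. By edgeR 0 of the 51 were called, beside 0.0155% of all tested genes, and by DESeq2 0, beside 2.69% of all genes it adjusted. DESeq2 gave no adjusted p for Cldn9, which is among the 51, so Cldn9 could not be called by it. By limma-voom 0 were called too, its share over all genes not being given here. The median log2 fold change of the 51 was -0.044. At an unadjusted p under 0.05 there were 6 of 51, or 11.8%, beside 13.7% of all tested genes, and 8 of 51, or 15.7%, had groups that did not overlap, against 17.3%.

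Among other claudins, 14 had too few counts to test, with totals of 1 to 32 over the 6 libraries and at most 9 in any library. They include Cldn5 of endothelium and Cldn18 of stomach and lung, with totals of 3 and 2. Cldn12 had a log2 fold change of -0.040 ± 0.16 and Cldnd1, a claudin-domain gene, of 0.063 ± 0.16. Cldn9 was barely detected and lower, at 0.282, 0.161 and 0.28 CPM in knockouts and 0.699, 0.852 and 1.18 CPM in floxed controls. It rested on 46 counts in all, with 5, 3 and 5 in knockouts and 8, 13 and 12 in floxed controls. Its log2 fold change of -1.88 ± 0.48 did not pass (adjusted p = 0.146). Only the floxed controls were high enough for the count filter, so the direction of this value is tied to the filter.

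At tricellular corners, where 3 cells meet, Marveld2 (tricellulin) had 36.7, 37.5 and 34.4 CPM in knockouts and 33.9, 31.7 and 32.7 CPM in floxed controls. The groups did not overlap, but the log2 fold change was 0.14 ± 0.15 (adjusted p = 0.727). The angulins Lsr and Ildr1, which recruit tricellulin, had log2 fold changes of -0.21 ± 0.22 and -0.36 ± 0.25, and the related Marveld3 had 0.037 ± 0.15.

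Among scaffolds, Cgn (cingulin), which links ZO proteins to actin and myosin, had 139.3, 166.9 and 147.3 CPM in knockouts and 120.9, 121.2 and 103.9 CPM in floxed controls. All knockouts were above all floxed controls, and the log2 fold change of 0.39 ± 0.16 did not pass (unadjusted p = 0.0317, adjusted p = 0.308). Its paralogue Cgnl1 (paracingulin) had 4.12, 4.94 and 3.13 CPM in knockouts and 7.6, 4.46 and 8.27 CPM in floxed controls (log2 -0.73 ± 0.30, adjusted p = 0.32). The angiomotin-like genes Amotl2 and Amotl1 had log2 fold changes of -0.57 ± 0.24 and -0.82 ± 0.40 (adjusted p = 0.326 and 0.401). Without floxed controls 1 and 3 the log2 fold change of Cgnl1 was -0.071 (adjusted p = 0.968) and that of Amotl1 -0.30, while that of Cgn was 0.38.

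Among the adhesion proteins with immunoglobulin folds, Esam had 3.61, 3.11 and 2.63 CPM in knockouts and 4.63, 4.72 and 5.02 CPM in floxed controls, with no overlap (log2 -0.62 ± 0.26, adjusted p = 0.335). Esam is also a gene of endothelial cells. The 10 endothelial markers summed to 4.37 to 5.02 CPM in knockouts and 5.38 to 6.64 CPM in floxed controls. Of them, 4 were high enough to test, with 3 negative fold changes and 1 positive. Among those too low to test, Cdh5 and Kdr were at 0 in all knockouts, with 2 and 3 counts over the floxed controls, whereas Tie1 had 7, 10 and 5 counts in knockouts and 2, 3 and 2 in floxed controls. The part of endothelial RNA in the Esam difference was not tested. The epithelial members Cxadr, Igsf5 and Gpa33 had log2 fold changes of 0.11 ± 0.15, 0.060 ± 0.16 and -0.045 ± 0.21.

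Polarity genes, which place the junction at the apical edge, had 7 of 9 negative fold changes and a median of -0.17. Of all 12943 tested genes 6722 were negative, with a median of -0.013. By edgeR none of the 9 polarity genes was called, beside 0.0155% of all tested genes. Prkcz, the atypical protein kinase C zeta, had the smallest p of the group (log2 -0.29 ± 0.17, adjusted p = 0.49), followed by Crb3 (log2 -0.22 ± 0.19), Pard3 (-0.17 ± 0.15) and Pard6b (-0.17 ± 0.16). Of 15 regulators of claudins and junction tension, Prss8, a membrane-anchored serine protease, had 49.4, 41.6 and 42.9 CPM in knockouts and 48.1, 61.8 and 70.5 CPM in floxed controls (log2 -0.43 ± 0.18, adjusted p = 0.312). Arhgef2, the junction-bound RhoA activator GEF-H1, had a log2 fold change of -0.36 ± 0.18 (adjusted p = 0.399; -0.059 without floxed controls 1 and 3), and Rock2, the kinase downstream of RhoA, of 0.17 ± 0.22.

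Adherens junctions and desmosomes, the adhesive contacts below the tight junction, were likewise without a called gene among 20 tested, by edgeR, beside 0.0155% of all tested genes. At an unadjusted p under 0.05 there were 0 of 20, beside 13.7%, and 2 of 20, or 10%, had groups that did not overlap, beside 17.3%. Their median log2 fold change was 0.0059. Nectin3 had 114.1, 115.1 and 114.4 CPM in knockouts and 92.3, 101.2 and 77.7 CPM in floxed controls (log2 0.34 ± 0.16, adjusted p = 0.368). Nectin1 had a log2 fold change of -0.39 ± 0.20, the desmosomal cadherin Dsc2 of 0.32 ± 0.16 and the plakin Evpl of 0.29 ± 0.17 (adjusted p = 0.426, 0.416 and 0.479).

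**Figure D5:**
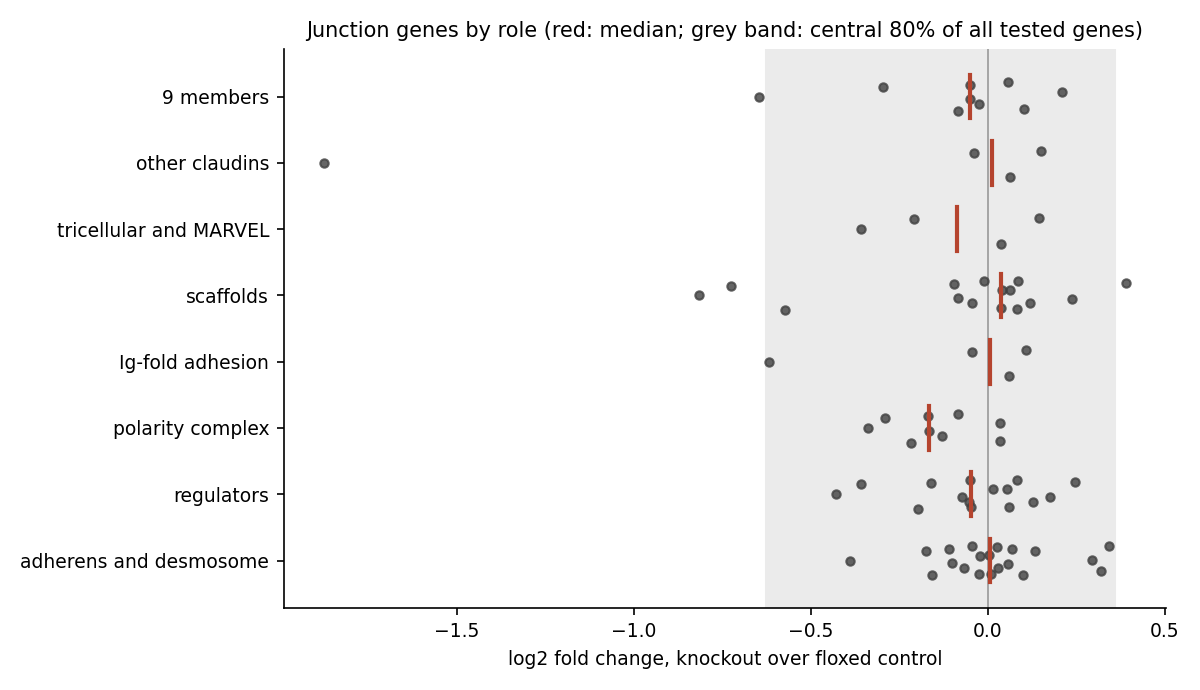
Log2 fold change, knockout over floxed control, of every tested junction gene as a dot, by role, with the median of each role as a red line and the central 80% of all tested genes as a grey band (-0.63 to 0.36). Medians of the 8 groups lie between -0.17 and 0.037. The dot far to the left is Cldn9, which had 46 counts in all and met the count filter only through its floxed controls.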

How the data were processed

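Per the labels' protocols, mRNA library reads of 50 bp were read from 1 end on the DNBSEQ platform. mm10 is the build in the submitters' processing notes, while which aligner, counter and annotation were used is not given in the sources used here. A single table was analysed, holding estimated counts per gene as the authors deposited them, and its library totals show no normalization. Between 31.1% and 35.2% of a library's values are not whole. They were rounded for the tests. No strand setting is given.

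Tests were made with edgeR 4.0.16 (R 4.3.3) on the 6 libraries together: filterByExpr on group, TMM scaling, glmQLFit (robust) and glmQLFTest for knockout over floxed control, called at a Benjamini-Hochberg adjusted p under 0.05 over 12943 genes. The biological coefficient of variation was 20.3%. SEs are the log2 fold change over the root of F, and intervals (95%) use the test's degrees of freedom. Likeness across libraries used log2 CPM with a prior count of 2. Lengths are of the longest basic protein-coding transcript in GENCODE M21 (GRCm38), loci and promoters of RefSeq GRCm38.p6, where 17469 gene IDs were found. The tests were checked on simulated data. Alternatives used DESeq2 1.42.0 and limma 3.58.1, and Python 3.11.15 with pandas 2.3.3, numpy 2.4.6 and matplotlib 3.10.9 made the remaining values and figures.

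The members, lists, tests and alternatives were chosen with earlier results of these data known. Genes named from each list were up to 4 with the smallest p, and any called. Cldn5 and Cldn18 were added to those with their values known, as was the removal of the length and GC trend. No 2 libraries were identical.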

Additional observations from a re-analysis of the deposited data

How the results depend on the processing

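Of the 9 genes and the 71 other tight junction genes in the table, 0 were called in any of 18 alternatives. Which of the 71 had enough counts to test changed with the filter and the libraries kept. The alternatives were other scaling, DESeq2, limma-voom, other filters, unrounded counts, a replicate block, each library left out, pairs of libraries left out, a clock term, and the length and GC trend taken out. These 0 calls held although counts over all genes, 1 higher and 1 lower as reported, swung widely. They were 0 and 0 with DESeq2 size factors, with TMM without the 50 most abundant genes and with the length and GC trend taken out. They were 38 and 304 by DESeq2, 3 and 64 without a filter, and 3 and 36 with a replicate block, where 0 of the 9 genes were called. Deviations from the group means correlated at -0.177, -0.272 and 0.0681 between libraries of the same number. With 3 libraries a group and strong differences between single libraries, these values cannot settle whether the numbers pair the libraries. Without floxed controls 1 and 3 the counts over all genes were 3 and 9, and without floxed control 2 and knockout 1 they were 185 and 735. With the clock term 0 were higher, and the number lower is not given here, so that setting has no full background. With single libraries left out, higher calls ran from 0 to 188 and lower calls from 0 to 767, the largest without floxed control 2.

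Of 665 fold changes of 37 named genes under these alternatives, 630 kept direction and call and 35 changed sign, none of them called. Without floxed controls 1 and 3 the log2 fold change was -0.16 for Cldn7, -0.014 for Cldnd1, 0.035 for Cldn12, -0.46 for Cldn8, -0.063 for Marveld3 and 0.040 for Pard6b. Without floxed control 2 and knockout 1 it was 0.0037 for Cldn15, 0.038 for Cldn3 and -0.75 for Cldn8. Cldn8 was at -0.36 by limma-voom, -0.26 with the replicate block and -0.15 with the clock term. With the trend out Cldn3 was at 0.065, Cldnd1 at -0.13, Igsf5 at -0.056 and Gpa33 at 0.0016. The cause was not tested. With single libraries left out the signs of 11 genes turned in at least 1 case: Cldn15 ran from -0.20 to 0.047, Cldn3 from -0.23 to 0.13, Cldn7 from -0.025 to 0.30, Cldn23 from -0.24 to 0.15, Ocln from -0.18 to 0.054, Cldn12 from -0.14 to 0.034, Cldnd1 from -0.0080 to 0.15, Cldn8 from -1.31 to 0.72, Gpa33 from -0.18 to 0.097, Igsf5 from -0.020 to 0.14 and Marveld3 from -0.025 to 0.13. Cldn4 kept its sign throughout, from -0.80 to -0.21. So did Cldn2 (0.035 to 0.35), F11r (0.023 to 0.12) and Tjp1 (-0.49 to -0.054). Group means of the levels per kilobase moved by less than the group's SD with the union of exons as length or with plain library size, except in knockouts for Cldn7 (443.6 with the union of exons) and F11r (59.4 with plain library size). The 9 genes had 1875 (Cldn23) to 58544 (Cldn7) counts over the 6 libraries, and the number of libraries, 3 a group, limits the precision.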
